A study of Homo sapiens with 6 samples.

Results

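GOLPH3, its paralogue GOLPH3L and 8 genes whose products are linked to GOLPH3 or to the Golgi were examined in HCT-116 colon carcinoma cells. The 10 genes were those of the deposited table whose symbol equalled GOLPH3, GOLPH3L, MYO18A, PI4KB, SACM1L, ACBD3, VPS35, PITPNB, PRKDC or GOLM1, out of 60546 genes in all. Each symbol had 1 row, and all 10 genes passed the filter on low values that 26536 genes passed. HCT-116 is an established cell line. By their titles 3 libraries were labelled GOLPH3 and 3 Vector, and every library carries the genotype label wild type. The methods describe stable lines infected with lentivirus of the PMSCV vector, with the human GOLPH3 cDNA or without it, and name puromycin selection for the overexpressing lines but not for the control line. The total RNA came from different generations of each line according to the methods, which do not say whether a line was 1 clone or which promoter drove the cDNA. The libraries labelled GOLPH3 carry the numbers P8, P12 and P13 in their titles and those labelled Vector P12, P11 and P13, for replicates 1, 2 and 3. What P stands for is not stated in the labels, and the libraries are named here by group and P number.

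The Golgi marks its membranes with the lipid phosphatidylinositol 4-phosphate, PI4P. PI4KB is a kinase that makes PI4P, ACBD3 brings PI4KB to the Golgi, PITPNB carries phosphatidylinositol between membranes, and SACM1L is the phosphatase that removes the phosphate. GOLPH3 and GOLPH3L read the lipid, and GOLPH3 ties the membrane to actin through the unconventional myosin MYO18A and helps to keep glycosyltransferases in the Golgi. VPS35 is the core subunit of retromer, which returns cargo from endosomes to the Golgi. PRKDC is the catalytic subunit of the DNA-dependent protein kinase, which acts on GOLPH3 after DNA damage, and GOLM1 is a Golgi membrane glycoprotein also known as GP73.

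The GOLPH3 transcript was first compared between the groups, since it checks the labels. It was not higher with the GOLPH3 label, and the labels were kept as given. Protein was not measured in these libraries, so the check covers the transcript only. Among the other genes MYO18A stood apart, with a level that was higher in all 3 libraries labelled GOLPH3 than in any labelled Vector. The remaining 8 genes had group means that were lower in the libraries labelled GOLPH3. With limma and Benjamini-Hochberg adjustment over all genes tested, 0 of the 10 had an adjusted p under 0.05, where 5.07% of all genes tested did. At an unadjusted p under 0.05 there was 1 (MYO18A), where 17.6% of all genes passed. DESeq2 and edgeR on the recovered reads also called 0 of the 10, with 8.68% and 6.58% of their genes called. In 2 of the 10 genes the groups did not overlap, against 22% of all genes, with MYO18A higher (9.2% of all genes) and PITPNB lower (12.8%).

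The upstream sequences of GOLPH3, GOLPH3L and MYO18A are shown because a cDNA such as the GOLPH3 insert carries no promoter of its own, because the paralogue allows a comparison, and because MYO18A had the largest difference of the 10. RefSeq promoter entries on GRCh38.p14 matched 9 of the 10 genes. For each of the 3 genes the window of 250 bases before the start farthest upstream was read, 5′ to 3′ on the gene's strand, which is minus in each case. Bases inside the gene as GENCODE 29 annotates it, 31 for GOLPH3 and 14 for MYO18A, are left off the 3′ end of the printed letters, and the counts are over the whole window. Capitals mark the letters GGGCGG, known as a GC box, and the letters CCAAT, known by that name as a box, searched on both strands. A match of the latter on the opposite strand therefore reads ATTGG here, and no marked matches overlap.
GOLPH3, chr5:32174351-32174569: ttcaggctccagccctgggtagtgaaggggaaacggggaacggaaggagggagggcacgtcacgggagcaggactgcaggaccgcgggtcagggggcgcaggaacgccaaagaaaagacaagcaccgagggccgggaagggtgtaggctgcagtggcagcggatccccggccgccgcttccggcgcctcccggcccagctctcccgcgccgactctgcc
GOLPH3L, chr1:150697155-150697404: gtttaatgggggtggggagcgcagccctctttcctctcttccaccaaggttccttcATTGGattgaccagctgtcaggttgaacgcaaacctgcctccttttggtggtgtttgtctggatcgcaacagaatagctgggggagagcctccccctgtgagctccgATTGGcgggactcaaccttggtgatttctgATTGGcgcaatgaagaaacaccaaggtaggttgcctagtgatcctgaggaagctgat
MYO18A, chr17:29180413-29180648: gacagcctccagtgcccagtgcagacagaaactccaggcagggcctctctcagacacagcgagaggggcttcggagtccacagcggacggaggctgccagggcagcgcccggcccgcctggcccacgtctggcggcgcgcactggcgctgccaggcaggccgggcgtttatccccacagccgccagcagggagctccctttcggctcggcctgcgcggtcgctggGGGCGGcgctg
The GOLPH3 window had 70.4% G and C, 24 CG dinucleotides and neither motif. The GOLPH3L window had 53.2% G and C, 6 CG dinucleotides and 3 CCAAT matches, all on the opposite strand. The MYO18A window had 73.2% G and C, 25 CG dinucleotides and 1 GGGCGG match, and RefSeq lists 3 starts for this gene. Of 35116 windows of the same length, 42.6% held GGGCGG, 32% held CCAAT and 10.7% held TATAAA, which none of the 3 windows held. These matches describe the letters only.

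Values are normalized reads, that is, the authors' counts after division by the size factor of each library, uncorrected for length. Libraries held between 15708846 and 21900764 recovered reads, and mitochondrial genes took 4.41% to 9.97%. At P12 the mitochondrial share was 4.41% with the GOLPH3 label and 7.08% with the Vector label. At P13 it was 9.75% and 4.71%, so the pairs that share a P number differed in opposite directions. At P8 and P11 it was 9.97% and 9.88%. The part of this share in the values below was not tested. The counting error of the 10 genes was a coefficient of variation of 0.746% to 4.68% per library, while the spread between the 3 libraries of a group was 9.78% to 33.5%. The precision of these comparisons was thus set by the spread between libraries and not by counting. Of 14 colon epithelial markers, 12 were tested and CDX1 and KRT20 had at most 3 reads in every library. The summed epithelial markers ran from 62857 to 134434 normalized reads with the GOLPH3 label and from 30051 to 41165 with the Vector label. The summed 14 mesenchymal markers ran from 1688 to 2109 and from 4163 to 7591. CDH2, ZEB2 and COL1A2 stayed at or under 3 reads in all libraries with the GOLPH3 label, and COL1A2 did so in those with the Vector label too. In every library labelled Vector 2 mesenchymal and 4 epithelial markers stayed at or under 3 reads. By limma 2 of the 12 tested epithelial markers were called higher and 6 of 13 mesenchymal markers lower, where 253 of all 26536 genes were called higher and 1093 lower. Of the 12 tested epithelial markers 2 had a negative log2 fold change, with the lowest at -1.79. Of the mesenchymal markers 9 had a negative log2 fold change and 3 were higher at an unadjusted p under 0.05, with the highest at 1.85. These sums do not overlap between the groups, and their part in the values below was not tested. In bulk RNA, fewer cells with a transcript and less of it per cell cannot be told apart.

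GOLPH3 (ENSG00000113384) lies on chromosome 5 from 32124704 to 32174350 in GENCODE 29 on GRCh38. Its level was 1629.5 at P8, 1272 at P12 and 1383 at P13 in the libraries labelled GOLPH3, and 1892 at P11, 1968 at P12 and 1472 at P13 in those labelled Vector. The groups overlapped, since the P8 library labelled GOLPH3 was above the P13 library labelled Vector, and the lowest value of all 6 belonged to the P12 library labelled GOLPH3. The log2 fold change, GOLPH3 against Vector, was -0.31 (adjusted p = 0.609 in limma, SE 0.27). Its 95% interval ended at a 1.22-fold higher level, so that a larger rise of the transcript lay outside it. Within the pair of libraries at P12 the log2 difference was -0.63, and at P13 it was -0.089. The direction stayed negative in all 17 alternatives, between -0.44 and -0.23. The table sums reads over the gene, so reads of the vector copy and of the endogenous gene were not separated.

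GOLPH3L (ENSG00000143457; chromosome 1, 150646225 to 150697144) had 654, 376 and 512 normalized reads at P8, P12 and P13 in the libraries labelled GOLPH3. In the libraries labelled Vector it had 674, 617 and 554 at P11, P12 and P13. The P12 and P13 libraries labelled GOLPH3 were lower than every library labelled Vector, and the P8 library was not. Its log2 fold change was -0.29 (adjusted p = 0.684 in limma, SE 0.31, 95% interval -0.96 to 0.38). It was -0.48 without GOLPH3 replicate 1 and -0.082 without GOLPH3 replicate 2. Inside a library the ratio of GOLPH3 to GOLPH3L does not depend on the size factor. It was 2.49, 3.38 and 2.70 at P8, P12 and P13 with the GOLPH3 label and 2.81, 3.19 and 2.66 at P11, P12 and P13 with the Vector label. The log2 ratio was 1.50 ± 0.23 (SD, n = 3) against 1.52 ± 0.14 (SD, n = 3), a difference of -0.023 (exact two-sided permutation test, p = 0.9, and the smallest p that 3 libraries in each group allow is 0.1). The paralogues thus kept ratios between 2.49 and 3.38 in all 6 libraries, and the difference between the groups was smaller than the spread within either. Its sign changed with the libraries used, with 0.082 within P12 and 0.022 within P13.

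**Figure D1:**
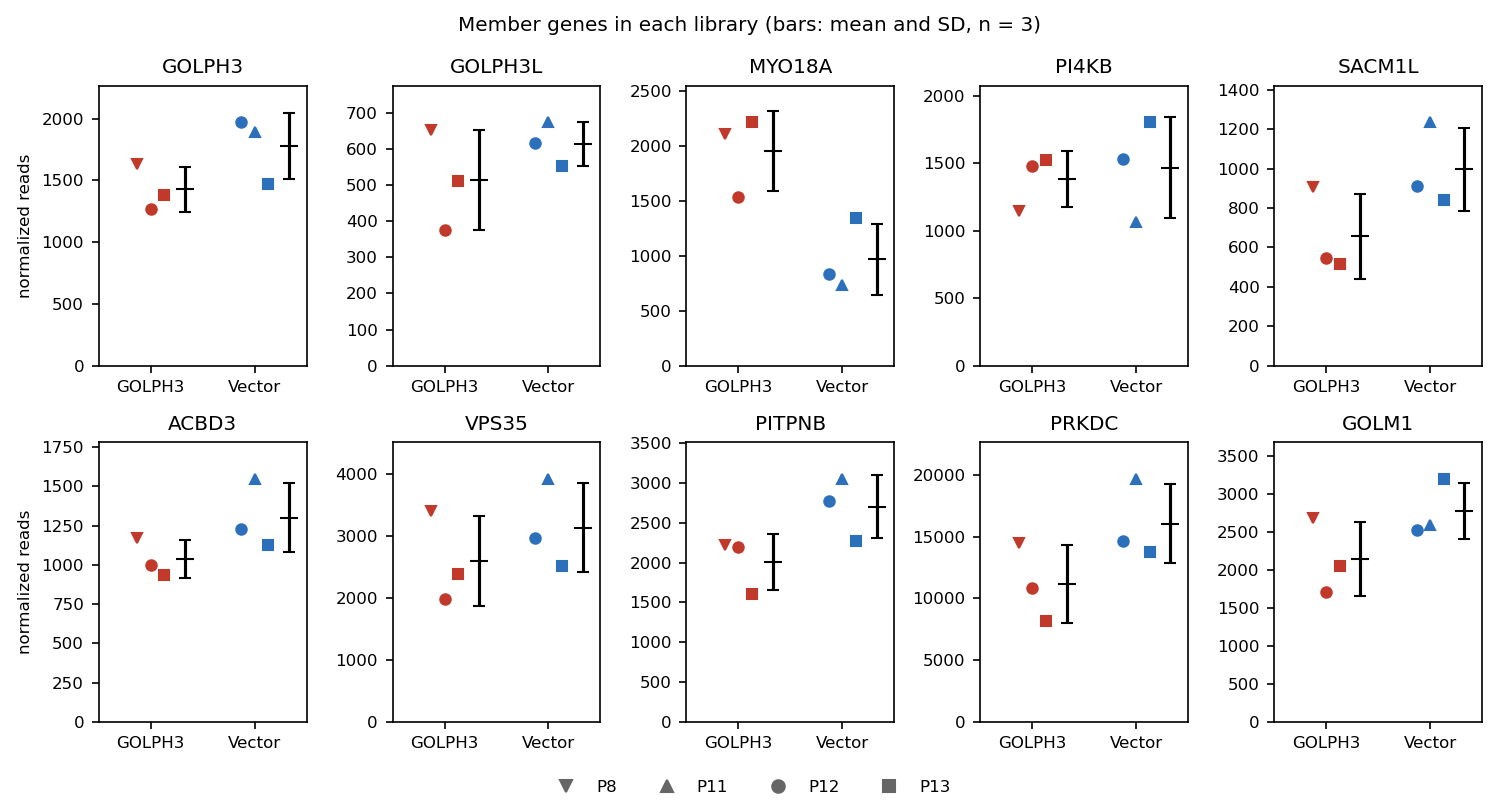
Normalized reads (y axis, from 0) of each of the 10 genes in the 6 libraries, red for those labelled GOLPH3 and blue for those labelled Vector, with the P number as the symbol and black bars for the mean and SD of 3 libraries. MYO18A is the panel in which every red point lies above every blue point (lowest red 1536, highest blue 1338), and PITPNB the panel in which every red point lies below.

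MYO18A (ENSG00000196535; chromosome 17, 29071124 to 29180412), the myosin that binds GOLPH3 and actin, differed most. It had 2107, 1536 and 2211 normalized reads at P8, P12 and P13 in the libraries labelled GOLPH3. In the libraries labelled Vector it had 736 at P11, 830 at P12 and 1338 at P13. The groups did not overlap, with a mean of 1951 ± 363 against 968 ± 324 (SD, n = 3 each). On the log2 scale the fold change was 1.04, a 2.06-fold difference (SE 0.31, 95% interval 0.36 to 1.73), with an unadjusted p of 0.00605 and an adjusted p of 0.0859 in limma, which did not pass the threshold. The exact two-sided permutation test gave its smallest possible p, 0.1. That p follows from the lack of overlap and adds nothing to it, and PITPNB had the same p. The difference was positive in both pairs, 0.89 within P12 and 0.72 within P13. Over the 17 alternatives the log2 fold change lay between 0.81 and 1.30 and the limma, DESeq2 or edgeR adjusted p between 0.000647 and 0.319. It passed with the P number as a covariate (limma adjusted p = 0.0478) and as a block (0.000647), settings under which 9.04% and 22.9% of all genes were called. With the block the P8 and P11 libraries were fitted exactly, so the difference rests on the P12 and P13 pairs. Its p then leans largely on the spread borrowed from other genes.

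Another gene shares exon sequence with MYO18A. TIAF1, on the same strand, covers 1394 exon bases, or 9.26% of the MYO18A exons, and its normalized reads ran from 44.8 to 75.1 with the GOLPH3 label and from 25.7 to 34.3 with the Vector label. How the counting assigned reads in the shared bases is not stated. TIAF1 held far fewer reads than MYO18A in every library, but its count need not hold all reads in the shared bases. Its log2 fold change was 0.83 (adjusted p = 0.385 in limma). The TIAF1 groups did not overlap, as was so for 22% of all genes tested. The part of the shared bases in the MYO18A values was not tested. The ratio of MYO18A to GOLPH3 was 1.29, 1.21 and 1.598 at P8, P12 and P13 in the libraries labelled GOLPH3 and 0.389, 0.422 and 0.909 at P11, P12 and P13 in those labelled Vector. These ratios are given without a test because they were formed after the MYO18A values had been seen.

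The kinase that makes PI4P and the phosphatase that removes it were compared next. PI4KB (ENSG00000143393; chromosome 1, 151291797 to 151327715) had 1143, 1482 and 1520.1 normalized reads at P8, P12 and P13 in the libraries labelled GOLPH3. In the libraries labelled Vector it had 1066 at P11, 1533 at P12 and 1801 at P13. The groups overlapped fully, with a log2 fold change of -0.064 (adjusted p = 0.937 in limma, SE 0.30, 95% interval -0.71 to 0.58). In both groups the library with the lowest P number was the lowest. The opposite-strand gene ZNF687 shares 384 exon bases with PI4KB, 7.04% of its exons, and had 615 to 1353 normalized reads. Whether the counting used strand is not stated.

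SACM1L (ENSG00000211456; chromosome 3, 45689056 to 45745424) had 906, 546 and 515 normalized reads at P8, P12 and P13 in the libraries labelled GOLPH3. In the libraries labelled Vector it had 1234, 913 and 841 at P11, P12 and P13. The P8 library labelled GOLPH3 reached the Vector range, and the P12 and P13 libraries stayed below it. The log2 fold change was -0.63 (adjusted p = 0.341 in limma, SE 0.32, 95% interval -1.33 to 0.06). Within the pairs the differences were -0.74 at P12 and -0.71 at P13, and SACM1L passed the threshold once the P number was a block (limma adjusted p = 0.00355). With that block the difference rests on the P12 and P13 pairs alone, since P8 and P11 occur once each.

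The ratio of PI4KB to SACM1L was 1.26, 2.71 and 2.95 at P8, P12 and P13 in the libraries labelled GOLPH3. With the Vector label it was 0.864 at P11, 1.68 at P12 and 2.14 at P13. The mean log2 ratio was higher by 0.57 in the libraries labelled GOLPH3 (exact two-sided permutation test, p = 0.4), which is less than the spread within a group, 0.68 (SD, n = 3) in each. Within the pairs the log2 ratio was higher by 0.69 at P12 and 0.46 at P13. The 2 libraries at the lowest P numbers had the 2 lowest ratios of the 6.

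ACBD3 (ENSG00000182827; chromosome 1, 226144679 to 226186730), which recruits PI4KB, had 1170.1, 998 and 936 normalized reads at P8, P12 and P13 in the libraries labelled GOLPH3. In the libraries labelled Vector it had 1548, 1228 and 1126 at P11, P12 and P13. The P8 library labelled GOLPH3 lay above the P13 library labelled Vector, and the log2 fold change was -0.32 (adjusted p = 0.598 in limma, SE 0.28), and -0.19 without Vector replicate 2. PITPNB (ENSG00000180957; chromosome 22, 27851669 to 27920134), the phosphatidylinositol transfer protein, had 2222, 2198 and 1601 against 3054, 2776 and 2278 in the same order of libraries. Its groups did not overlap, but the gap between the P8 library labelled GOLPH3 and the P13 library labelled Vector was narrow. The log2 fold change was -0.43 (adjusted p = 0.466 in limma, SE 0.28), with -0.34 within P12 and -0.51 within P13. Without GOLPH3 replicate 3 it was -0.28. The opposite-strand transcript TTC28-AS1 shares 156 exon bases with PITPNB, 3.04% of its exons.

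VPS35 (ENSG00000069329; chromosome 16, 46656132 to 46689518) had 3401, 1989.8 and 2392 normalized reads at P8, P12 and P13 with the GOLPH3 label and 3929, 2977 and 2515 at P11, P12 and P13 with the Vector label. The P8 library labelled GOLPH3 was second only to the P11 library labelled Vector, so the groups overlapped widely (log2 fold change -0.29, SE 0.30, limma adjusted p = 0.684). The VPS35 value was -0.50 without GOLPH3 replicate 1, -0.43 without Vector replicate 3, and -0.11 without replicate 2 of either group. PRKDC (ENSG00000253729; chromosome 8, 47773108 to 47960183) had 14465, 10838 and 8136 against 14666, 19694 and 13751 for the Vector replicates 1, 2 and 3. Its log2 fold change was -0.55 (adjusted p = 0.409 in limma, SE 0.31), and only the P8 library labelled GOLPH3 reached the Vector range. Without GOLPH3 replicate 3 it was -0.34. GOLM1 (ENSG00000135052; chromosome 9, 86026146 to 86100173) had 2673, 1705 and 2047 at P8, P12 and P13 with the GOLPH3 label and 2587, 2525 and 3195 at P11, P12 and P13 with the Vector label. Its log2 fold change was -0.39 (adjusted p = 0.529 in limma, SE 0.28), and again only P8 reached the Vector range. Without GOLPH3 replicate 2 it was -0.23. Blocked on the P number, PRKDC and GOLM1 passed the threshold (limma adjusted p = 0.0427 and 0.0127). With MYO18A and SACM1L that made 4 of the 10 genes, where 22.9% of all genes passed. As for MYO18A, these calls rest on the P12 and P13 pairs and lean largely on the spread borrowed from other genes. The log2 difference of P8 minus P11, which the block leaves out, was -0.45 for PRKDC and 0.047 for GOLM1.

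**Figure D2:**
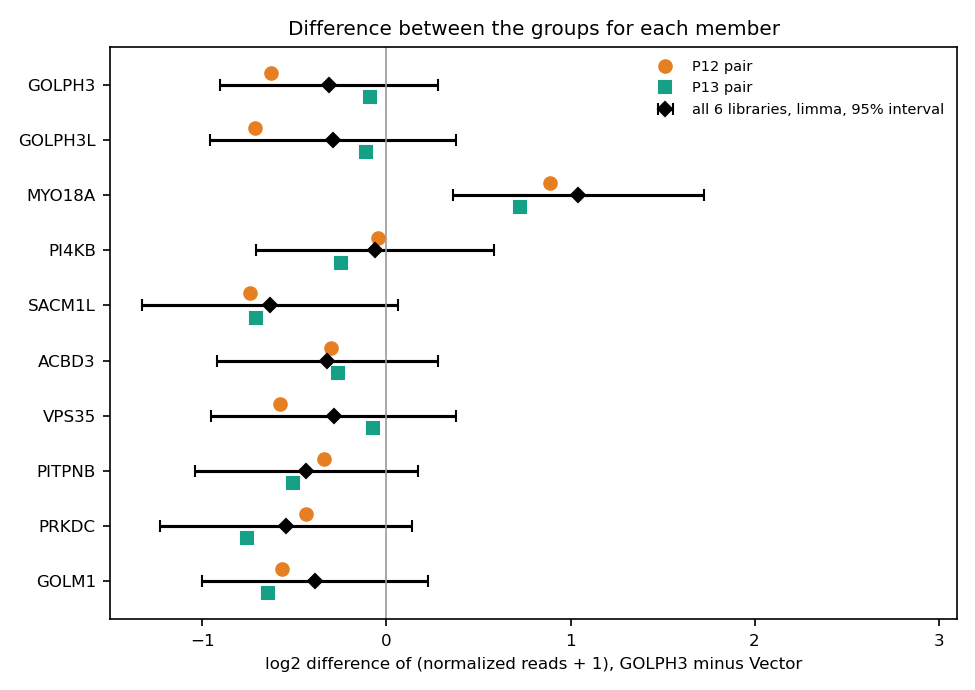
Log2 difference of (normalized reads + 1), GOLPH3 minus Vector (x axis), for each gene, with black diamonds and bars for the limma estimate and its 95% interval over all 6 libraries, orange circles for the P12 pair and green squares for the P13 pair. The MYO18A interval, 0.36 to 1.73, is the one that leaves out 0.

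Within both pairs of libraries that share a P number, 9 of the 10 genes were lower with the GOLPH3 label, all but MYO18A, where 34.7% of all genes tested were lower in both pairs. The median log2 fold change of the 10 genes was -0.32, against 0.016 for all genes tested. These genes are not independent of each other, since all values come from the same 6 libraries. Over the libraries, Pearson's r of the log2 levels was 0.97 between SACM1L and PRKDC, 0.96 between SACM1L and ACBD3 and between ACBD3 and PRKDC, and -0.90 between MYO18A and PITPNB. Each r rests on the same 6 libraries, 3 with each label.

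The order of the libraries within each group was described next, with 1 library for each P number. In 8 of the 10 genes the P8 library was the highest of those labelled GOLPH3, and in 6 of the 10 the P11 library was the highest of those labelled Vector, where 37.3% and 35.9% of all genes tested had these orders. Both held in 6 genes, or 60% of the 10 against 21.3% of all genes. GOLPH3L and VPS35 had both low-P libraries above the other 4, and PI4KB had both below them. Such a separation in either direction was seen in 23.5% of all genes tested, so 3 of 10 is close to that share. MYO18A and GOLM1 had their highest level with the Vector label at P13, and GOLPH3 at P12. No test was run on these orders, which were noticed in the data.

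**Figure D3:**
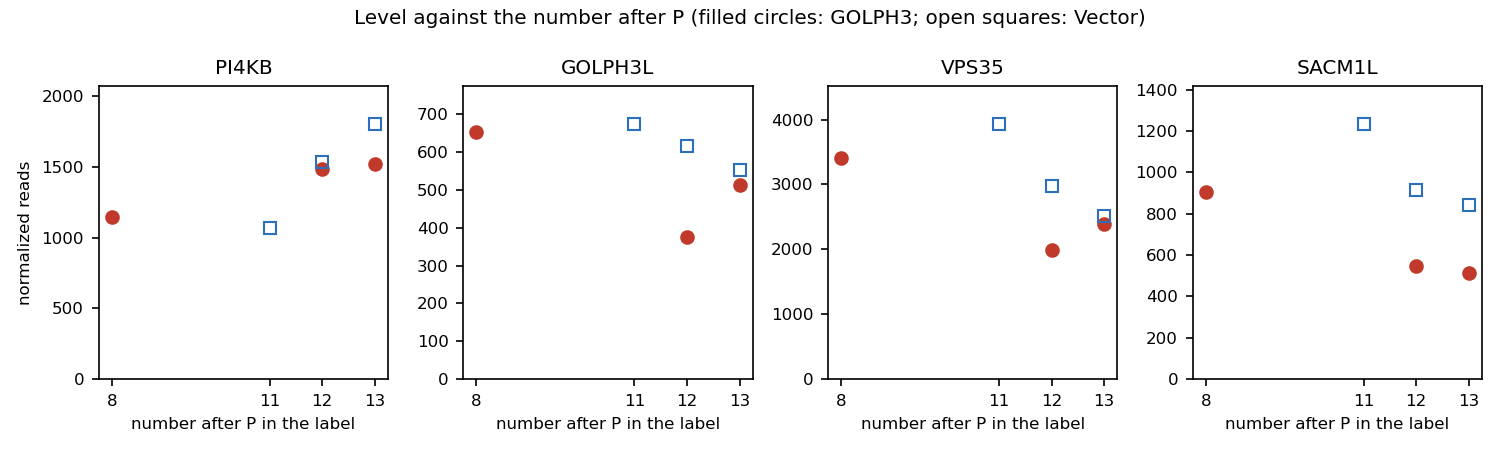
Normalized reads (y axis, from 0) of PI4KB, GOLPH3L, VPS35 and SACM1L against the number after P in the library title (x axis), with filled circles for the libraries labelled GOLPH3 and open squares for those labelled Vector. PI4KB has its 2 lowest values, 1143 and 1066, at P8 and P11, while GOLPH3L and VPS35 have their 2 highest values there.

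Levels were compared between genes after division by the union of the annotated exons in GENCODE 29, which runs from 2.785 kb for GOLPH3 to 15.417 kb for PRKDC. The union takes in every annotated transcript, used in these cells or not. The order of the genes and the percentiles below therefore depend on the annotation. On this scale of normalized reads per kb, the mean over the 6 libraries fell in the order PRKDC (882 ± 254, SD, n = 6), GOLM1 (580.0 ± 123), GOLPH3 (575 ± 101), PITPNB (459 ± 98.8), ACBD3 (326 ± 60.3), VPS35 (295 ± 73.3), PI4KB (261 ± 50.1), GOLPH3L (169.5 ± 33.2), SACM1L (112 ± 36.3) and MYO18A (48.9 to 147 over the libraries). The ranges of every pair of neighbours in this order overlapped. PRKDC was above GOLM1, GOLPH3 above PITPNB, PITPNB above ACBD3, and GOLPH3L above SACM1L in 6 of 6 libraries. GOLM1 was above GOLPH3 in 2 libraries, VPS35 above PI4KB in 3 and SACM1L above MYO18A in 3, so these neighbours could not be ordered. SACM1L and MYO18A changed places with the label. MYO18A had 130 ± 24.1 per kb against 89.2 ± 29.6 for SACM1L in the libraries labelled GOLPH3, and 64.3 ± 21.5 against 135 ± 28.4 in those labelled Vector (SD, n = 3). GOLPH3 lay at the 95.1st percentile of 25890 genes tested with an exon length, GOLPH3L at the 81.2nd and MYO18A at the 72.3rd.

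**Figure D4:**
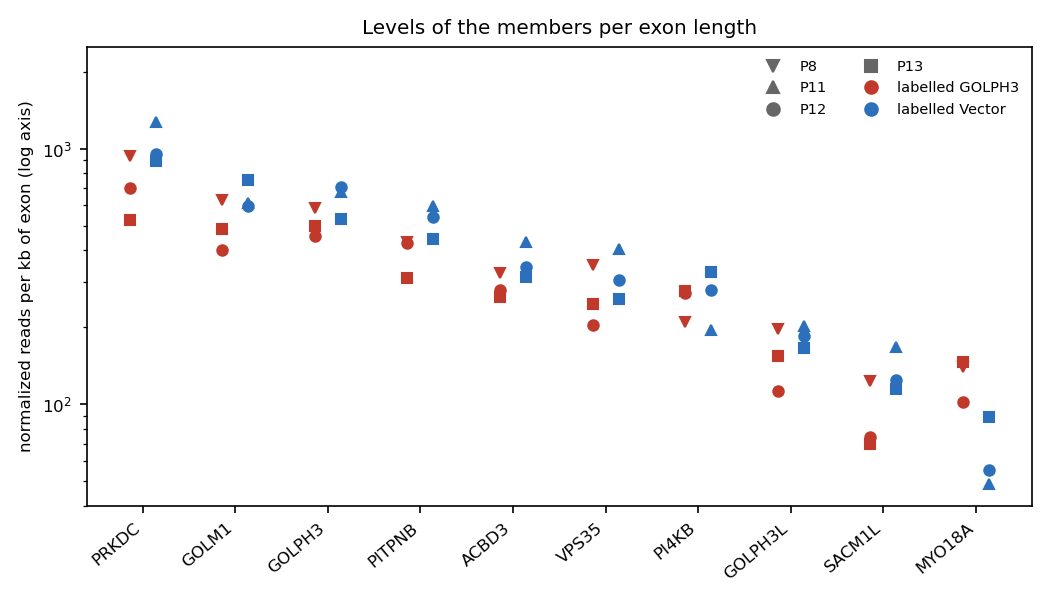
Normalized reads per kb of exon (y axis, log scale) of each gene in the 6 libraries, ordered by the mean over all libraries, with red for the GOLPH3 label, blue for the Vector label and the P number as the symbol. PRKDC is highest (mean 882) and MYO18A lowest (48.9 to 147), and MYO18A is the gene whose red points lie above the blue ones.

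The genes whose levels followed GOLPH3 most closely were sought among 11266 genes with a mean of at least 100 normalized reads. By Pearson's r of log2 levels over 6 libraries they were KCTD6 (r = 0.99), RIDA (0.99), NUDT5 (0.98), CEBPZOS (0.98) and CISD2 (0.98). Of the 11266 genes, 25 exceeded 0.95 and 165 exceeded 0.9. Of the other 9 genes, SACM1L (r = 0.85, rank 461), VPS35 (0.85, rank 519) and GOLPH3L (0.84, rank 557) came closest, and MYO18A (-0.74) and PI4KB (-0.44) ran against GOLPH3. These values are descriptions over the same 6 libraries, 3 with each label, and no test was attached to them.

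A wider set of 79 genes of Golgi PI4P, the coats that bind GOLPH3, retromer, DNA-PK and the Golgi matrix, none of them among the 10, was then examined. Of these, 78 were tested, and 2 had a limma adjusted p under 0.05, both lower in the libraries labelled GOLPH3, which is below the 5.07% of all genes. At an unadjusted p under 0.05 there were 10 higher and 6 lower, where 1993 of all 26536 genes were higher and 2670 lower, or 17.6% in all. In 23 of the 78 the groups did not overlap, against 22% of all genes. The median log2 fold change of the 78 was -0.0028, against 0.016 over all genes tested. The list medians lay between -0.28 and 0.22.

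Among 11 other kinases and phosphatases of the PI4P cycle, 1 was called. PIP5K1B, a kinase that turns PI4P into the bisphosphate, had 1, 2 and 0 reads at P8, P12 and P13 in the libraries labelled GOLPH3 and 10, 24 and 31 reads at P11, P12 and P13 in those labelled Vector. From the 3 and 65 reads in all, the level was 21.9-fold lower with the GOLPH3 label (exact 95% interval 7.17 to 109, counting error only). Limma gave an adjusted p of 0.00754, which reached 0.0673 over the alternatives that tested the gene. The gene was at a low level in every library. It was lower in the same libraries as the summed mesenchymal markers, as were 12.8% of all genes, and a link was not tested. Among 13 genes of PI4KB recruitment and the ARF GTPases none was called (0 of 13), and the smallest p belonged to ARF5 (log2 fold change 0.90, limma adjusted p = 0.232) and RAB11B (0.77, limma adjusted p = 0.263).

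Of 18 PI4P readers and lipid transfer proteins, 0 were called, and 7 had a negative log2 fold change, where 49.1% of all genes tested did. PITPNM2 and PITPNM1, which exchange phosphatidylinositol where the endoplasmic reticulum meets other membranes, had the smallest p. PITPNM2 had 839, 866 and 1047 normalized reads at P8, P12 and P13 with the GOLPH3 label and 427, 449.8 and 573 at P11, P12 and P13 with the Vector label (log2 fold change 0.93, SE 0.28, limma adjusted p = 0.0921). PITPNM1 had a log2 fold change of 1.00 (adjusted p = 0.136 in limma, SE 0.34). The groups did not overlap in 7 of the 18 genes of this list, PITPNM1 and PITPNM2 included, against 22% of all genes.

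Of 9 COPI coat subunits 0 were called, and the other gene of that list, MYO18B, did not pass the filter on low values. The smallest p belonged to COPG2 (log2 fold change -0.77, limma adjusted p = 0.175) and COPE (0.61, limma adjusted p = 0.419), the coat that GOLPH3 binds. Of 9 retromer and sorting nexin genes 0 were called, with SNX2 (log2 fold change -0.70, limma adjusted p = 0.276) and SNX5 (-0.58, limma adjusted p = 0.310) at the smallest p. The Ku subunits XRCC5 and XRCC6, which hold DNA-PK on DNA ends, differed by -0.33 and -0.23 on the log2 scale (adjusted p = 0.641 and 0.724 in limma).

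Of 16 Golgi matrix and cisternal proteins, 1 was called. GOLIM4, a Golgi membrane protein that cycles through endosomes, had 512, 228 and 319 normalized reads at P8, P12 and P13 in the libraries labelled GOLPH3. In the libraries labelled Vector it had 993, 612 and 1339 at P11, P12 and P13. Its log2 fold change was -1.48 (adjusted p = 0.0482 in limma, SE 0.39, up to 0.172 over the alternatives), and the groups did not overlap. The call lay close to the threshold. GOLM1, another Golgi membrane protein, had the smaller log2 fold change of -0.39, and the difference between these genes was not tested.

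**Figure D5:**
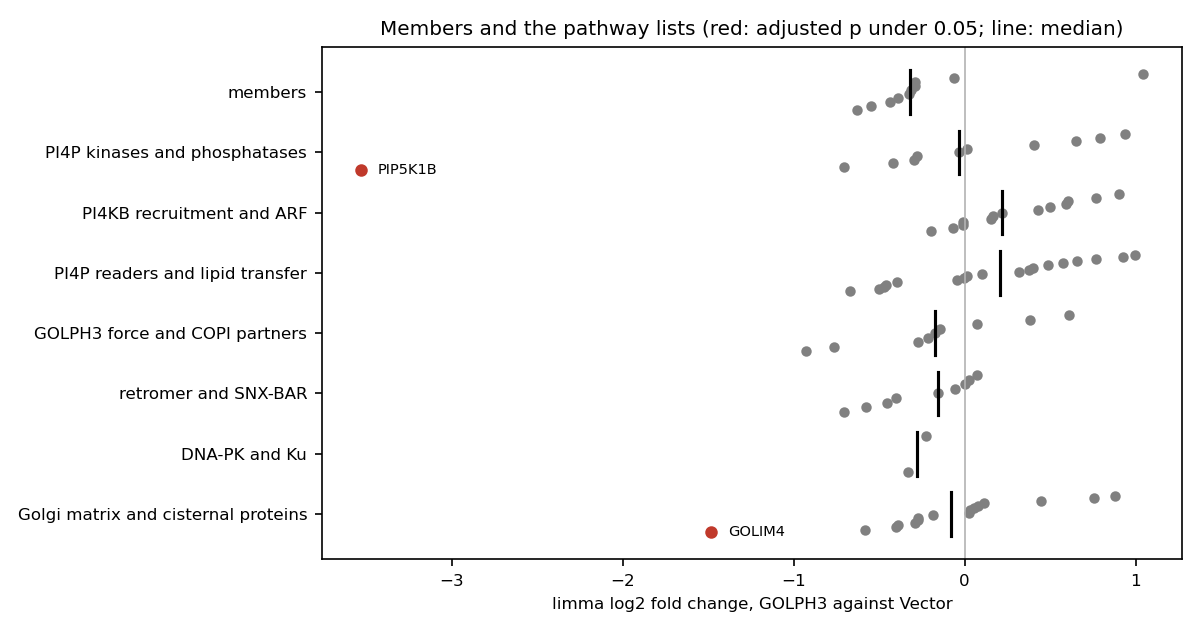
Limma log2 fold change, GOLPH3 against Vector (x axis), of the 10 genes and of the other genes of each list, 1 point per gene, with red points for an adjusted p under 0.05 and black lines for the median of each list. The position of PIP5K1B, with 3 reads in all in 1 group, depends on the pseudocount. PIP5K1B and GOLIM4 are the points in red, and the median of the 10 genes is -0.32 with MYO18A at 1.04 on the right.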

How the data were processed

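The authors deposited a signal per gene and library from sorted alignments. The submitters' processing notes name fastp 0.20.0, HISAT2 2.1.0, Cufflinks, featureCounts 1.6.1, DESeq2 and GRCh38, and the annotation is not given in the sources used here. In every library 100% of the low nonzero values came out as whole reads when divided by that library's step (tolerance 0.02 reads), and the product of step and DESeq2 size factor was constant to within 0.0167%, so that values divided by the step gave the reads. Identifiers listed again (44 entries, none of the 10 genes) were summed. Genes that reached 1 normalized read in 3 or more libraries were tested with limma 3.58.1 (R 4.3.3) on log2(value + 1) with a mean-dependent prior. Fold changes are on that scale. DESeq2 1.42.0 and edgeR 4.0.16 on the recovered reads were alternatives, with those named in the closing section. Of the identifiers, 96.4% were in GENCODE 29. Scripts were tested on simulated data.

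The members and lists were chosen with earlier results of these data known. The genes named are the 10 members, the called genes of each list or else the 2 with the smallest p, the 5 genes most like GOLPH3 and its 3 nearest tested protein-coding neighbours on each side. Replicates are libraries of different generations of 1 line per group, so p-values measure the spread between those libraries.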

Additional observations from a re-analysis of the deposited data

How the results depend on the processing

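Of the 10 genes, 0 were called in 15 of 17 alternatives, 1 with the P number as a covariate and 4 with it as a block. Leaving out any library gave 0 to 0. The PI4KB log2 fold change turned positive with the P covariate (0.058), without GOLPH3 replicate 1 (0.070) and without Vector replicate 3 (0.10), and lay between -0.28 and 0.10 with a library left out. MYO18A passed with the P covariate (log2 fold change 1.08) and the P block (0.81). The difference in the GOLPH3 to GOLPH3L ratio turned positive within P12 (0.082) and within P13 (0.022), and lay between -0.15 and 0.070 with a library left out. The PI4KB to SACM1L difference lay between 0.19 (without Vector replicate 2) and 0.96 with a library left out.

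The 2 calls among the 78 pathway genes became 1 under quantile normalization, a pseudocount of 0.1 and edgeR, 0 with at least 1 normalized read in every library, 5 with the P covariate and 28 with the P block, and ranged from 0 to 2 with a library left out. PIP5K1B was not tested where every library needed 1 normalized read, since it had 0 in the P13 library labelled GOLPH3. The 1346 calls among all genes became 405 with at least 1 normalized read in every library, 2399 with the P covariate and 6082 with the P block. They ranged from 459 (without Vector replicate 1) to 1528 with a library left out, with 881, 895 and 481 without GOLPH3 replicate 3, Vector replicate 2 and Vector replicate 3. With the replicate number as a block, 1 pathway gene, 0 of the 10 genes and 1081 genes in all were called. The deviations of same-numbered libraries had r = -0.23, -0.15 and 0.26, without a common sign. The 0.26 belongs to the libraries at P13, and whether the numbers pair the samples was not tested. For libraries that share a P number r was 0.26 at P12 and 0.26 at P13, and for P8 with P11 it was 0.33. Scaling to the total moved the median over all genes to -0.10 and MYO18A to 0.92. The causes of these changes were not tested.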

Other observations

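The tested protein-coding genes nearest to GOLPH3 on chromosome 5 had log2 fold changes of -0.17 (DROSHA, a ribonuclease of microRNA processing), -0.55 (C5orf22) and -0.60 (PDZD2) at lower coordinates. At higher coordinates they had -0.026 (MTMR12, a myotubularin-related adaptor), -0.37 (ZFR, a zinc finger RNA-binding protein) and -0.57 (SUB1, a transcription coactivator). All 6 were negative, as GOLPH3 was at -0.31, where 49.1% of all genes tested were negative. MTMR12, at -0.026, hardly differed. The distance from GOLPH3 was 13.8 kb for PDZD2, 180 kb for ZFR, 357 kb for SUB1, 570 kb for C5orf22 and 593 kb for DROSHA. None passed the threshold, with limma adjusted p between 0.350 and 0.981, and the shared sign was not tested. SUB1 had the smallest p, at 1845 ± 264 normalized reads with the GOLPH3 label and 2781 ± 774 with the Vector label (SD, n = 3 each). MTMR12, 52.6 kb away, had 821 ± 250 and 831 ± 236 (SD, n = 3).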
